A study of Homo sapiens with 15 samples.

Results

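The genes described here encode the subunits of oxidative phosphorylation that are carried by the nuclear genome. They were taken as the protein-coding genes whose symbol, found through the Ensembl identifier of the count table, begins with NDUFA, NDUFB, NDUFC, NDUFS or NDUFV and a digit (complex I), is SDHA, SDHB, SDHC or SDHD (complex II), or begins with UQCR (complex III), COX4 to COX8 (complex IV) or ATP5 (complex V). Of 60649 genes in the table, 89 met the rule. They comprised 38 genes of complex I, 4 of complex II, 9 of complex III, 17 of complex IV, 19 of complex V and 2 readthrough genes. After the filter on low counts, 83 of the 89 were tested among 23711 genes. The other 6 were COX4I2, COX6A2, COX8C, ATP5MGL and the readthrough genes ATP5MF-PTCD1 and NDUFC2-KCTD14. The symbol rule places NDUFA4 with complex I, although its protein is known as a part of complex IV.

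The libraries came from K562, a long-established human line from chronic myeloid leukemia that carries the BCR-ABL fusion and has erythroid features. Untreated cells were set against cells kept for 24 h in 0.15, 0.25, 0.5 or 1 µM martinostat, an inhibitor of histone deacetylases (HDACs), the enzymes that take acetyl groups off histones. Each of the 5 groups held 3 libraries labelled as biological replicates of this single line, and the labels name no treatment of the untreated cells. The study also assayed intracellular ATP in these cells, which was not analysed here. The question put to the libraries was whether transcripts of the machinery that makes most mitochondrial ATP differed between doses.

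In oxidative phosphorylation, complex I takes electrons from NADH and complex II takes them from succinate. Both hand them to coenzyme Q, complex III passes them on to cytochrome c, and complex IV gives them to oxygen. Complexes I, III and IV pump protons across the inner mitochondrial membrane, and complex V, the ATP synthase, lets the protons flow back and makes ATP. Most subunits are encoded in the nucleus and some of complexes I, III, IV and V in the mitochondrial genome, while complex II is wholly nuclear. Transcription of the nuclear genes is known to draw on the factors NRF1, GABP (an ETS family factor) and YY1 and on coactivators of the PGC-1 family.

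The libraries held between 23755510 and 32805574 counts in genes. All 37 genes of the mitochondrial chromosome stood at 0 counts in every library, so only the nuclear side of the complexes could be described. Levels are given as CPM, the count of a gene relative to the library total after TMM scaling (the trimmed mean of M values), whose factors ran from 0.784 to 1.28. The largest factors belonged to the third library at 0.25 µM and the third at 0.5 µM, which stood apart from the others of their doses. Of 9 erythroid and K562 genes used to check the cell type, none was at 0, and their summed level ran from 2873.7 to 3100.0 CPM in untreated cells and from 773.2 to 920.8 CPM at 1 µM. The globin gene HBE1 was close to 0, at 0.17 CPM untreated and at most 0.745 CPM in any library. TFRC, at 1228 CPM, was the largest part of the untreated sum. A list of 8 genes that define other cell types summed to between 157.2 and 170.5 CPM in untreated cells and to between 320.9 and 506.9 CPM at 1 µM. MS4A1 and KRT5, which define B cells and basal epithelium, were at 0 in untreated cells, whereas the collagen gene COL1A1 averaged 4.37 CPM untreated and reached 473 CPM in its highest library. The part of these shifts in the results below was not tested. In bulk RNA, fewer cells of one kind and less RNA per cell cannot be told apart.

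With TMM scaling, most of the nuclear oxidative phosphorylation genes were called lower after martinostat at every dose, and few were called higher. A gene was called where its p from edgeR's quasi-likelihood test, after Benjamini-Hochberg adjustment over the 23711 genes, was under 0.05. At 0.15 µM, 45 of the 83 were called lower and 3 higher, whereas 19.4% of all tested genes were called lower and 31.9% higher. At 0.25 µM the counts were 61 lower and 2 higher, against 24.8% and 37.4% of all tested genes. At 0.5 µM they were 57 and 4, against 27.6% and 39.4%, and at 1 µM 55 and 4, against 27.5% and 38.8%. In all, 64 of the 83 differed between the 5 groups, with 73.6% of all tested genes called by the same test.

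The median log2 fold change of the 83 genes went from -0.52 (0.15 µM) through -0.78 and -0.82 to -0.92 (1 µM). The median of all tested genes lay above 0 at each dose, at 0.28, 0.32, 0.34 and 0.32. Set against that shift, the median of the 83 differed by -0.81, -1.10, -1.16 and -1.24 on the log2 scale. The subunit genes are abundant transcripts, and abundant genes as a class fell more often. Among the 10128 genes that averaged 10 CPM or more, 40.2% were called lower at 0.15 µM and 48.4% at 1 µM, with medians of -0.28 and -0.39. The 75 subunit genes above that level were called lower in 60% and 72% of cases, with medians of -0.60 and -0.94.

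The number of calls depended on how the libraries were scaled, and the median of all tested genes moved with the scaling. With library totals in place of TMM factors, 25 genes were lower and 5 higher at 0.15 µM, against 8.93% and 40.4% of all tested genes. The counts were 35 and 7 at 0.25 µM (12.9% and 49.3%), 47 and 10 at 0.5 µM (19.9% and 46.8%), and 48 and 7 at 1 µM (20.1% and 45.6%). When the TMM factors were computed on abundant genes only, those of 10 CPM or more, 32 were lower and 3 higher at 0.15 µM (12.2% and 38.3%), 42 and 7 at 0.25 µM (15.5% and 47.2%), 45 and 10 at 0.5 µM (19.5% and 48.1%), and 47 and 7 at 1 µM (20% and 46.8%). RLE scaling, the size factors of DESeq2, gave 48 and 3 (20.9% and 30.7%), 60 and 2 (23.8% and 38.2%), 57 and 4 (26.1% and 40.9%), and 55 and 4 (26.3% and 40%). The share of calls that were lower was 93.8%, 96.8% and 93.4% at the first 3 doses with TMM, and 83.3%, 83.3% and 82.5% with library totals. With TMM on abundant genes it was 85.7% at 0.25 µM and 81.8% at 0.5 µM. Under library totals the median of all tested genes stood at 0.64 (0.15 µM), 0.85 (0.25 µM), 0.72 (0.5 µM) and 0.67 (1 µM), and the median of the 83 stayed below 0, at -0.17, -0.29, -0.48 and -0.57.

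**Figure D1:**
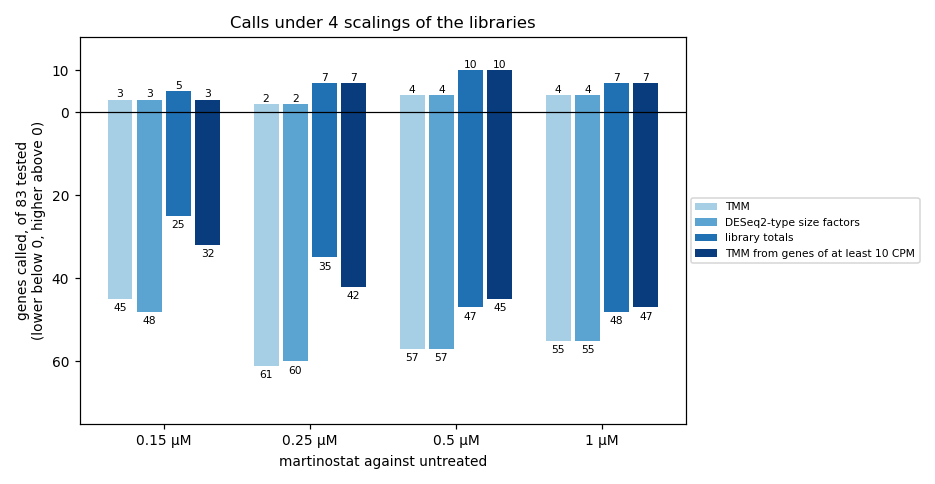
Number of the 83 tested oxidative phosphorylation genes called lower (bars below 0) and higher (bars above 0) against untreated cells at each martinostat dose, under 4 scalings of the libraries (shades). Lower calls outnumber higher calls at every dose under every scaling, from 25 against 5 (library totals, 0.15 µM) to 61 against 2 (TMM, 0.25 µM).

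Across doses, 42 genes were called lower at all 4 and 2 genes, COX6B2 and COX7B2, were called higher at all 4. The first count was 22 with library totals, 30 when TMM used abundant genes only and 44 with RLE scaling, and 25 of the 45 genes lower at 0.15 µM were called so in all alternatives. No gene was called in opposite directions at different doses under any of the 4 scalings. There were 14 genes called at no dose (23 with library totals and 21 when TMM used abundant genes only), among them NDUFV1, NDUFS7, COX6A1, COX6B1, COX6C, COX7A2 and ATP5F1D. The shares of all tested genes with these patterns across doses are not given here. The patterns therefore cannot be read as particular to the subunit genes. At 1 µM with TMM scaling, 37 genes were lower by more than 1 on the log2 scale, that is to less than 50% of the untreated TMM-scaled level. The share of all tested genes that fell as far is not given here, nor is this count under the other scalings. The median log2 fold change of the tested subunit genes at 1 µM was -0.92 with TMM and -0.86 with RLE scaling. It was -0.57 with library totals and -0.53 when TMM used abundant genes only, so the count of 37 holds for TMM scaling only. Together the 89 genes made up 1.29% ± 0.038 (SD, n = 3) of all counts in untreated cells and 0.901% ± 0.086 (SD, n = 3) at 1 µM. The third libraries at 0.25 and 0.5 µM held the lowest shares of their groups, and without both libraries 54, 58, 54 and 61 genes were called lower at the 4 doses in rising order.

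**Figure D2:**
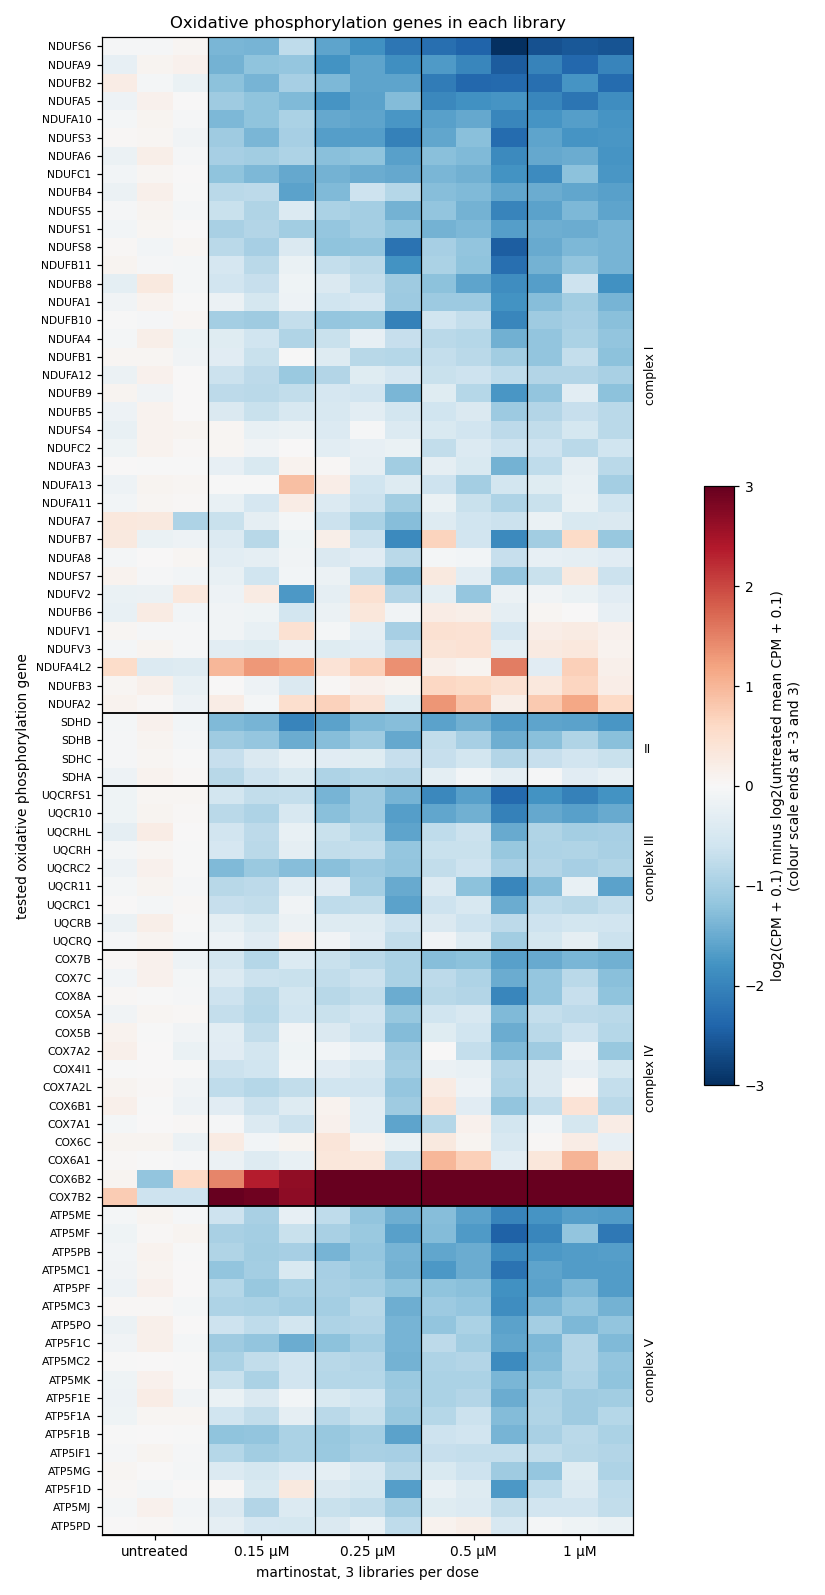
Level of the tested genes (rows, 1 of the 83 not shown, by complex and then by fold change at 1 µM) in each of the 15 libraries (columns), as log2(CPM + 0.1) minus the same of the untreated mean. Blue is below and red above the untreated mean. The rows are mostly blue from 0.15 µM on, COX6B2 and COX7B2 are red in all 12 treated libraries, and the third libraries at 0.25 and 0.5 µM are mostly darker blue than the others of their dose.

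Promoters of the subunit genes are shown because motifs of NRF1, ETS factors and YY1 are what these genes are known to share, and the counts do not use sequence. RefSeq promoters (GRCh38.p14, 250 bases before to 50 after the start) were found for 70 of the 89 genes and for 15333 protein-coding genes in all. The NRF1 consensus, a string of 10 letters searched on both strands and set in capitals below, was in 17 of the 70 (24.3%) and in 8.61% of all promoters. The ETS core CCGGAAG was in 20 (28.6%) against 14.4%, the YY1 string ATGGCGG in 19 (27.1%) against 7.75%, and the E-box CACGTG, the comparison string, in 7 (10%) against 8.88%. Before the start, the YY1 string was found only in ATP5PF, NDUFA7, NDUFA13, NDUFS8 and SDHD. Most YY1 matches were thus not upstream of the start. No promoter of the 70 had overlapping matches of different strings, and 25 had none of the 4. The median GC content was 61% in the 70 and 63% in all promoters.

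The 90 bases before the start are given for genes of different complexes and different responses, with the string in capitals, written 5′ to 3′ on the strand of the gene. UQCRFS1 (chr19:29213152-29213241, minus strand) and NDUFA9 (chr12:4649024-4649113, plus strand) each have 1 NRF1 match here, and SDHA (chr5:218230-218319, plus strand) has 2, and 4 in its whole window, all on the opposite strand.
UQCRFS1: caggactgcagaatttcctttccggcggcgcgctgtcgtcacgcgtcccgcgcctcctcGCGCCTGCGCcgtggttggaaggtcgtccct
NDUFA9: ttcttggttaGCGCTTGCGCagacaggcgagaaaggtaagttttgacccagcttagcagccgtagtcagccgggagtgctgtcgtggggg
SDHA: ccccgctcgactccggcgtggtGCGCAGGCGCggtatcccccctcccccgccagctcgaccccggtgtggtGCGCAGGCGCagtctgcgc
COX8A (chr11:63974530-63974619, plus strand) and UQCRH (chr1:46303608-46303697, plus strand) have an ETS core on the opposite strand.
COX8A: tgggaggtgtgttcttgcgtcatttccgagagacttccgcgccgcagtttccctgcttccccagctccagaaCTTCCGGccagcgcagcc
UQCRH: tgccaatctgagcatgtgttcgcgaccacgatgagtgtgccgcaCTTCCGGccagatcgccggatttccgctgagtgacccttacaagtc
COX6B2 (chr19:55354720-55354809, minus strand) and COX7B2 (chr4:46909246-46909335, minus strand), the genes called higher at every dose, have none of the 4 strings in their whole windows.
COX6B2: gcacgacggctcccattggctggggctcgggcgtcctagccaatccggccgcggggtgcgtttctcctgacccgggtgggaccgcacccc
COX7B2: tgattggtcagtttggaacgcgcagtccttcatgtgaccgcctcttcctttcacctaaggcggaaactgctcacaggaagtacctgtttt
The responses of genes with and without a string were set side by side with no test. At 1 µM the median log2 fold change was -1.04 in the 16 tested genes with the NRF1 string and -0.94 in the 51 without it, and it was -0.93 and -0.94 with and without the ETS core. It was -1.33 in the 19 with the YY1 string and -0.92 in the 48 without it. A match describes the letters in the window and is no measure of binding.

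Complex I is the entry point for electrons from NADH, and its subunits held both the largest falls and a pair of rises. Of its 38 genes, 17, 26, 25 and 24 were called lower at the 4 doses in rising order. The number called higher was 1, 0, 2 and 2. Of all tested genes, 19.4%, 24.8%, 27.6% and 27.5% were lower, and 31.9%, 37.4%, 39.4% and 38.8% higher. Among genes that averaged 10 CPM or more, 40.2% were lower at 0.15 µM and 48.4% at 1 µM, beside 44.7% and 63.2% in complex I. With library totals the counts were 12, 13, 20 and 21 lower and 2, 4, 6 and 4 higher, and when TMM used abundant genes only they were 13, 15, 19 and 22 lower and 1, 4, 6 and 4 higher. With library totals, 8.93%, 12.9%, 19.9% and 20.1% of all tested genes were lower and 40.4%, 49.3%, 46.8% and 45.6% higher. With TMM on abundant genes these shares were 12.2%, 15.5%, 19.5% and 20% lower and 38.3%, 47.2%, 48.1% and 46.8% higher. The median log2 fold change of the complex was -0.44, -0.70, -0.87 and -0.97 at the 4 doses.

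NDUFS6, a subunit of the electron-input module that binds zinc, fell the most at 1 µM. Its level was 188, 189 and 199.6 CPM in the untreated libraries, 74.1, 72.5 and 113 CPM at 0.15 µM, 63.6, 54.3 and 42.4 CPM at 0.25 µM, 40.1, 36.4 and 23.03 CPM at 0.5 µM and 31.4, 32.8 and 31.9 CPM at 1 µM. All 12 treated libraries lay below all untreated ones, and each dose up to 0.5 µM lay below the dose before it with no overlap. On the log2 scale NDUFS6 changed by -1.15 ± 0.20 (SE) at 0.15 µM, with an adjusted p of 0.000105, and by -2.58 ± 0.21 (SE) at 1 µM, with an adjusted p of 3.35e-09, and between 0.25 and 0.5 µM it was -0.69 (adjusted p = 0.0138). NDUFA9, a subunit near the junction of the membrane and matrix arms, was next, at 21.0, 26.3 and 26.8 CPM in untreated cells and 6.07, 4.77 and 6.21 CPM at 1 µM. The groups did not overlap, with a log2 fold change of -2.12 ± 0.21 (SE, adjusted p = 4.19e-08). NDUFS5, the complex I gene with the highest level per exon length in untreated cells (450.5 CPM per kilobase of exon), stood at 241, 263 and 237 CPM untreated and at 80.7, 96.4 and 83.02 CPM at 1 µM, a log2 fold change of -1.51 ± 0.19 (SE).

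Among the core subunits that carry out electron transfer, the response was uneven. NDUFS1 and NDUFS8, which hold iron-sulfur clusters, and NDUFS3 were called lower at 1 µM, with log2 fold changes of -1.45, -1.41 and -1.70. NDUFV1, which binds NADH and its flavin, NDUFV2 and NDUFS7 were called at no dose, with values of 0.19, -0.22 and -0.27 at 1 µM. NDUFV2 was measured at 2.83 CPM only, with 28.4% of its exon bases under another gene of the same strand, and 51.5% of the exon bases of NDUFS7 lay under genes of the opposite strand. This division into core subunits was made after the values were seen and carries no test.

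NDUFA2 and NDUFB3, both accessory subunits, were the complex I genes called higher at 0.5 and 1 µM. NDUFA2 stood at 52.2, 49.2 and 43.1 CPM in untreated cells, at 56.5, 45.9 and 68.1 CPM at 0.15 µM, at 78.4, 65.2 and 37.3 CPM at 0.25 µM, at 120.0, 86.6 and 54.4 CPM at 0.5 µM and at 82.7, 108 and 72.5 CPM at 1 µM. At the lower doses it overlapped the untreated group, and every library at 0.5 and 1 µM lay above it, with the third library at 0.5 µM closest to them. The log2 fold change at 1 µM was 0.86 ± 0.28 (SE, adjusted p = 0.0126), and the call was lost without the second library at 1 µM. The call at 0.5 µM (0.85, adjusted p = 0.0135) was lost without the third untreated library or the first at 0.5 µM. NDUFB3 stood at 75.2, 80.3 and 62.0 CPM untreated, 72.7, 65.6 and 53.6 CPM at 0.15 µM, 74.3, 78.9 and 76.2 CPM at 0.25 µM, 112, 108 and 100.2 CPM at 0.5 µM and 90.1, 114 and 82.8 CPM at 1 µM. It overlapped the untreated group at 0.15 and 0.25 µM and lay above it at 0.5 and 1 µM, with a log2 fold change of 0.40 ± 0.15 (SE, adjusted p = 0.0255) at 1 µM and 0.58 (adjusted p = 0.004) between 0.15 and 1 µM. The call at 1 µM was lost without the third untreated library, without the second library at 1 µM and with no filter on low counts.

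Complex II links the citric acid cycle to the respiratory chain, with SDHA carrying the flavin, SDHB the iron-sulfur clusters and SDHC and SDHD the membrane anchor. All 4 genes were called lower at 0.15 and 0.25 µM and 3 of them at 0.5 and 1 µM. With library totals 2, 2, 3 and 3 were lower at the doses in rising order, and 3, 3, 3 and 2 when TMM used abundant genes only, with none higher. Of all tested genes, 19.4%, 24.8%, 27.6% and 27.5% were lower with TMM at these doses. The shares were 8.93%, 12.9%, 19.9% and 20.1% with library totals and 12.2%, 15.5%, 19.5% and 20% with TMM on abundant genes. SDHD stood at 114, 131 and 113 CPM untreated, 47.1, 45.1 and 30.0 CPM at 0.15 µM, 39.2, 47.6 and 49.0 CPM at 0.25 µM, 39.2, 43.8 and 37.1 CPM at 0.5 µM and 39.5, 38.9 and 35.3 CPM at 1 µM. The treated libraries were far below the untreated ones already at the lowest dose, with a log2 fold change of -1.55 ± 0.16 (SE) and an adjusted p of 2.54e-07 there. At 1 µM the value was -1.65 ± 0.16 (SE, adjusted p = 4e-08). SDHB, the complex II gene with the highest level per exon length, fell from 176, 190 and 173 CPM to 74.7, 95.7 and 75.6 CPM at 1 µM (log2 fold change -1.13 ± 0.18, SE).

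SDHC had 108, 117 and 110 CPM in untreated cells and 69.4, 74.95 and 70.4 CPM at 1 µM, with no overlap (log2 fold change -0.64 ± 0.15, SE, adjusted p = 0.000722). Under library totals its value at 0.25 µM changed sign, and the call at 1 µM was lost when TMM used abundant genes only. Its calls at 0.15 and 0.25 µM were lost in 5 and 4 of 26 alternatives, both of these scalings among them. SDHA was the exception in the complex. It measured 26.9, 32.4 and 30.9 CPM untreated, 16.8, 19.4 and 21.7 CPM at 0.15 µM, 15.8, 16.5 and 16.3 CPM at 0.25 µM, 24.4, 28.6 and 24.9 CPM at 0.5 µM and 29.5, 23.9 and 25.9 CPM at 1 µM. All libraries at 0.15 and 0.25 µM lay below the untreated ones, whereas those at 0.5 and 1 µM overlapped them. At 0.15 µM the log2 fold change of SDHA was -0.64 ± 0.14 (SE), with an adjusted p of 0.00109. It was -0.89 at 0.25 µM (adjusted p = 2.96e-05) and -0.19 at 1 µM (adjusted p = 0.262). SDHA was called higher at 1 than at 0.15 µM (0.45 ± 0.14, SE, adjusted p = 0.0152) and at 0.5 than at 0.25 µM (0.68, adjusted p = 0.00128). With library totals SDHA was not called at 0.15 or 0.25 µM, and with the GC and length correction, with or without the block, it was called lower at 0.5 and 1 µM. The call between 0.15 and 1 µM was lost without the first library at 0.15 µM, without the first at 1 µM and with no filter on low counts. SDHA shares 21.7% of its exon bases with another gene of its strand and has 4 pseudogenes named after it.

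Complex III passes electrons from coenzyme Q to cytochrome c. Of its 9 genes, 4, 7, 8 and 7 were called lower at the 4 doses and none was called higher. With library totals 2, 6, 6 and 5 were lower, and when TMM used abundant genes only 3, 6, 5 and 5, again with none higher. Of all tested genes, 19.4%, 24.8%, 27.6% and 27.5% were lower with TMM. The shares were 8.93%, 12.9%, 19.9% and 20.1% with library totals and 12.2%, 15.5%, 19.5% and 20% with TMM on abundant genes. Among genes that averaged 10 CPM or more, 40.2% were lower at 0.15 µM with TMM, beside 44.4% in complex III. UQCRFS1, the Rieske iron-sulfur protein, fell at every step up to 0.5 µM. It stood at 289, 334 and 331 CPM untreated, 217, 189 and 192 CPM at 0.15 µM, 122, 151 and 122 CPM at 0.25 µM, 82.9, 102 and 63.0 CPM at 0.5 µM and 92.3, 77.7 and 91.0 CPM at 1 µM. Libraries of consecutive doses did not overlap until 0.5 µM, and those at 0.5 and 1 µM did. At 0.15 µM the log2 fold change was -0.67 ± 0.16 (SE), with an adjusted p of 0.00201 (a call lost with library totals), and at 1 µM it reached -1.87 ± 0.17 (SE), with an adjusted p of 1.18e-08.

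UQCR10, a small subunit, showed a log2 fold change of -1.57 at 1 µM, and UQCRB, which contributes to the quinone site, one of -0.59 (adjusted p = 0.0011), whereas UQCRQ, at -0.47, did not pass (adjusted p = 0.0523). UQCRB changed sign at 0.25 µM under library totals, and 4 of 26 alternatives lost its call at 1 µM. With the replicate number as a block, UQCRQ was called lower at 0.5 and 1 µM (-0.49, adjusted p = 0.0376, and -0.47, adjusted p = 0.0441). In all, 6 of 26 alternatives called UQCRQ at 0.5 µM and 10 of 26 at 1 µM. UQCRH, the hinge protein of complex III, had the highest level per exon length of the complex (441 CPM per kilobase) and stood at 567, 619 and 589 CPM untreated and 310.2, 316 and 300.3 CPM at 1 µM (log2 fold change -0.94 ± 0.17, SE, adjusted p = 8.93e-05). UQCRHL, a near-identical copy of it on chromosome 1, had 67.6 CPM ± 11.2 (SD, n = 3) untreated and a log2 fold change of -0.98. Reads of this pair may have been split between them, so both values are uncertain.

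Complex IV reduces oxygen, and its nuclear genes form a ring of accessory subunits around a core encoded in the mitochondrion. It had the lowest share of falls: of 14 tested genes, 5 were called lower at 0.15 µM, 7 at 0.25 µM, and 5 at both higher doses, with 2 higher at each dose. The lower share was 35.7%, 50%, 35.7% and 35.7%, beside 19.4%, 24.8%, 27.6% and 27.5% of all tested genes. Among all genes that averaged 10 CPM or more, 40.2% were called lower at 0.15 µM and 48.4% at 1 µM. With library totals 1, 1, 4 and 4 were lower and 3 were higher at each dose, so higher calls outnumbered lower ones at 0.15 and 0.25 µM. At these 2 doses the lower share was then 7.14%, under the 8.93% and 12.9% of all tested genes. When TMM used abundant genes only, 2, 4, 4 and 4 were lower and 2, 3, 3 and 3 higher. Its median log2 fold change was -0.36 at 1 µM with TMM, but -0.01 with library totals and 0.02 when TMM used abundant genes only, so its direction depended on the scaling. Of the 10 subunits present in most tissues, a division made after the values were seen, COX5A, COX5B, COX7B, COX7C and COX8A were called lower at 1 µM. COX4I1, COX6A1, COX6B1, COX6C and COX7A2 were not.

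COX7B stood at 263, 281 and 232 CPM untreated, 176, 143 and 194 CPM at 0.15 µM, 162, 148 and 135 CPM at 0.25 µM, 106, 110 and 84.1 CPM at 0.5 µM and 90.8, 100.2 and 95.4 CPM at 1 µM. Every treated group lay below the untreated one, neighbouring doses overlapped except 0.25 and 0.5 µM, and the log2 fold change was -0.60 at 0.15 µM (adjusted p = 0.00236) and -1.44 ± 0.15 (SE, adjusted p = 9.85e-08) at 1 µM. The call of COX7B at 0.15 µM was lost with library totals and with the GC and length correction, with or without the block. COX7C had a log2 fold change of -1.06 ± 0.17 (SE) at 1 µM. COX8A, with the highest level per exon length in the complex (349 CPM per kilobase), stood at 176, 172 and 168 CPM untreated and 76.8, 106 and 74.6 CPM at 1 µM (log2 fold change -1.005 ± 0.25, SE, adjusted p = 0.00193). For COX8A, 35.4% of the exon bases lie under another gene of the same strand.

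COX6B2 and COX7B2, paralogs of COX6B1 and COX7B whose expression is known mainly from testis, went the other way. COX6B2 stood at 0.327, 0.0772 and 0.509 CPM untreated, 1.02, 1.98 and 2.44 CPM at 0.15 µM, 3.42, 3.15 and 4.73 CPM at 0.25 µM, 4.73, 6.48 and 12.1 CPM at 0.5 µM and 7.60, 5.70 and 7.78 CPM at 1 µM. Every treated library was above every untreated one, and the highest value was in the third library at 0.5 µM. At 0.15 µM the log2 fold change was 2.56 ± 0.50 (SE), with an adjusted p of 0.000342, and at 1 µM 4.51 ± 0.49 (SE), with an adjusted p of 1.94e-07, with a rise of 1.95 (adjusted p = 0.00058) between both doses. For this gene, 29.1% of the exon bases are shared with another gene of its strand.

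COX7B2 had 4 counts in the untreated group, all in 1 library, which gave 0.164, 0 and 0 CPM. It measured 1.72, 1.06 and 0.895 CPM at 0.15 µM, 3.05, 3.33 and 2.68 CPM at 0.25 µM, 4.20, 2.76 and 1.77 CPM at 0.5 µM and 2.91, 2.49 and 1.71 CPM at 1 µM. All treated libraries lay above the untreated ones, and the 3 higher doses overlapped each other. Its 203 counts at 1 µM were 44.9 times the untreated level (95% exact interval 17.3 to 166, for counting error only), with an adjusted p of 8.73e-07. At 1 µM, in CPM per kilobase of exon, COX6B2 had a level of 1.89 and COX7B2 one of 2.9, beside 176 for COX6B1 and 31.6 for COX7B.

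**Figure D3:**
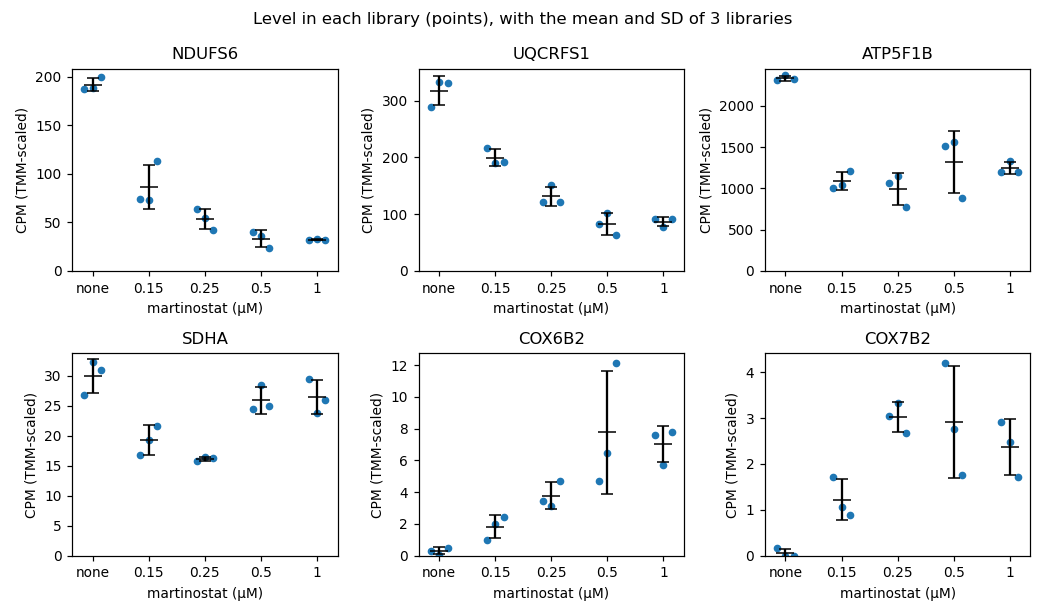
CPM (TMM-scaled, linear axis from 0) of 6 genes in each library (points) against martinostat dose, with the mean and SD of 3 libraries (bars). NDUFS6 and UQCRFS1 step down to 0.5 µM, ATP5F1B is lower at each dose, SDHA is lower at 0.15 and 0.25 µM and overlaps the untreated libraries at 0.5 and 1 µM, and COX6B2 and COX7B2 are above the untreated libraries at every dose.

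Complex V had the highest share of falls at 1 µM. Of 18 tested genes, 15, 17, 16 and 16 were called lower at the 4 doses and none higher, with medians of -0.73, -1.04, -1.09 and -1.10. With library totals 8, 13, 14 and 15 were lower, and when TMM used abundant genes only 11, 14, 14 and 14, and both scalings called 1 gene, ATP5PD, higher at 0.5 µM. Of all tested genes, 19.4%, 24.8%, 27.6% and 27.5% were lower with TMM. The shares were 8.93%, 12.9%, 19.9% and 20.1% with library totals and 12.2%, 15.5%, 19.5% and 20% with TMM on abundant genes. ATP5F1B encodes the catalytic beta subunit and was the most abundant of all 89 genes per exon length (1045 CPM per kilobase in untreated cells). It stood at 2317, 2373 and 2325 CPM untreated, 1009, 1036 and 1214 CPM at 0.15 µM, 1061, 1148 and 770.4 CPM at 0.25 µM, 1512, 1564 and 889 CPM at 0.5 µM and 1201, 1330 and 1202 CPM at 1 µM. All treated libraries lay below the untreated ones, and no order by dose was seen among them. At 0.15 µM the log2 fold change was -1.11 ± 0.20 (SE), with an adjusted p of 0.000158, and at 1 µM -0.91 ± 0.20 (SE), with an adjusted p of 0.000601, and the difference between 0.15 and 1 µM was 0.20 (adjusted p = 0.454).

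By part of the enzyme, again divided after the values were seen, the 3 genes of the membrane c ring, ATP5MC1, ATP5MC2 and ATP5MC3, were called lower at every dose, with a median of -1.32 at 1 µM. Of the F1 head and central stalk, ATP5F1A, ATP5F1B, ATP5F1C and ATP5F1E were called lower at 1 µM and ATP5F1D was not (-0.64, adjusted p = 0.12). Of the peripheral stalk, ATP5PB, ATP5PF and ATP5PO were called lower at 1 µM and ATP5PD was not. ATP5PD stood at 120, 122 and 114 CPM untreated, 97.6, 83.8 and 82.5 CPM at 0.15 µM, 88.3, 102 and 69.3 CPM at 0.25 µM, 127, 133 and 84.7 CPM at 0.5 µM and 113, 109 and 103 CPM at 1 µM. It lay below the untreated libraries at 0.15 µM (log2 fold change -0.43, adjusted p = 0.0394), while at 1 µM the difference was -0.13 (adjusted p = 0.507). Its value changed sign at 0.25 and 0.5 µM under library totals, and 12 of 26 alternatives lost the call at 0.15 µM, and 6 that at 0.25 µM. At 0.5 µM it was called higher with library totals (0.30, adjusted p = 0.0425) and when TMM used abundant genes only (0.35, adjusted p = 0.0327).

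The largest falls of complex V at 1 µM were those of the small membrane subunits ATP5ME and ATP5MF, each with a log2 fold change of -1.70. ATP5ME fell from 45.1, 49.5 and 45.8 CPM to 13.6, 14.82 and 14.6 CPM. Its exons lie for 61.3% of their length opposite another gene, and no source states whether counting used strand, so reads of the pair may not be told apart. ATP5MJ had the smallest of the called falls (-0.63 ± 0.15, SE), a call that was lost with library totals and when TMM used abundant genes only. ATP5IF1, the inhibitor that stops the enzyme from running in reverse, stood at 298, 326 and 299 CPM untreated, 169, 150.2 and 160.4 CPM at 0.15 µM, 143, 157 and 155 CPM at 0.25 µM, 192, 188 and 187 CPM at 0.5 µM and 186, 174 and 168 CPM at 1 µM. Its treated libraries lay below the untreated ones at each dose, and the log2 fold change was -0.94 at 0.15 µM (adjusted p = 3.07e-06) and -0.81 ± 0.12 (SE, adjusted p = 9.29e-06) at 1 µM.

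**Figure D4:**
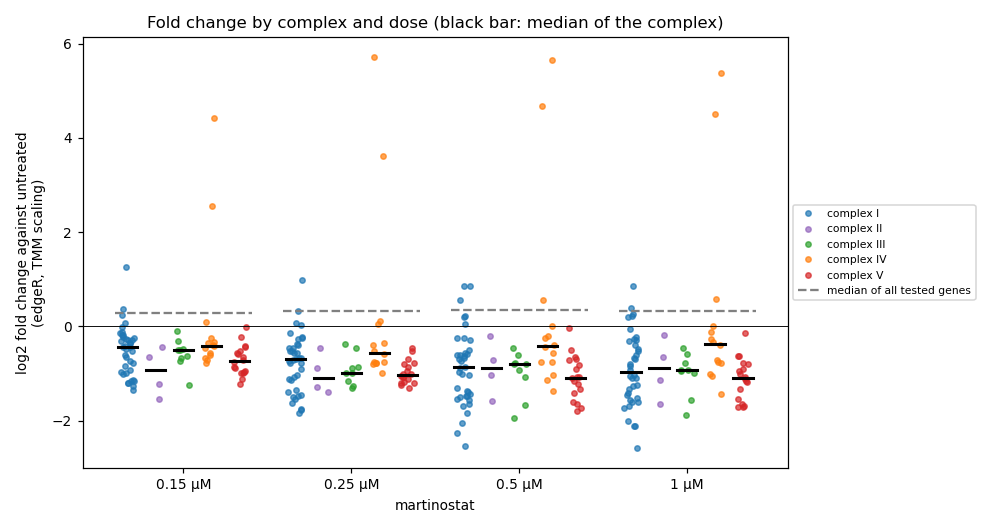
Log2 fold change against untreated cells (edgeR with TMM scaling) of each tested gene (points) by complex and martinostat dose, with the median of each complex (black bars) and of all 23711 tested genes (dashed lines). The complex medians lie below 0 at every dose with this scaling, from -0.36 (complex IV) to -1.10 (complex V) at 1 µM; under 2 other scalings that of complex IV lies near 0. The points far above are COX6B2 and COX7B2.

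Most paralog subunits known from restricted tissues were scarce, under 1 CPM per kilobase of exon in untreated cells. UQCRHL, described with complex III, and COX7A1 were not. COX4I2, known from lung, had 0 counts in the untreated group and 12, 9, 2 and 6 counts at the 4 doses, which is at least 3.54-fold higher at 0.15 µM when 3 counts over the untreated group are taken as the floor. COX8C had 0 untreated counts and 0, 6, 18 and 9 at the 4 doses, at least 5.47-fold higher at 0.5 µM. COX6A2, a muscle form, had 1 count in all treated libraries together. ATP5MGL had 1 untreated count and 12 at 1 µM, a ratio of 10.6 (95% exact interval 1.57 to 454). COX7A1, another muscle form, was called at no dose (-0.12 at 1 µM, adjusted p = 0.858). NDUFA4L2 stood at 1.14, 0.541 and 0.548 CPM untreated and 1.58, 1.98 and 1.82 CPM at 0.15 µM, above the untreated libraries there (log2 fold change 1.27 ± 0.47, SE, adjusted p = 0.0311). At 1 µM its libraries overlapped the untreated ones (0.27, adjusted p = 0.641). Its call at 0.15 µM did not hold in 6 of 26 alternatives, such as leaving out the second or the third library of the untreated or of the 0.15 µM group.

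To ask whether the genes changed further beyond the lowest dose, 1 µM was compared with 0.15 µM. This gave 31 lower and 5 higher genes among the 83, against 23.1% and 21.5% of all tested genes, with a median of -0.36 beside 0.02 for all tested genes. The calls were 22 lower and 7 higher with size factors of the DESeq2 type (RLE), against 20.3% and 24.6% of all tested genes, and 25 and 9 when TMM used abundant genes only, against 19.9% and 24.9%. With library totals 36 were lower and 7 higher, where 5314 of all 23711 tested genes were lower and 4804 higher. The share of calls that were lower was thus 86.1% with TMM, 75.9% with RLE, 73.5% with TMM on abundant genes and 83.7% with library totals. In 23 genes the level was lower at 0.15 µM and lower again at 1 µM (15 with library totals, 17 when TMM used abundant genes only and 17 with RLE scaling). The share of all tested genes with this joint pattern is not given here. The 31 comprised 19 lower genes of complex I, 3 of complex III, 2 of complex IV and 7 of complex V. The 5 higher genes were COX6A1, COX6B2, NDUFB3, NDUFV3 and SDHA, and COX6A1 and NDUFV3 are named only to complete this count. Leaving out 1 library gave 2 to 9 higher genes, with 2 without the first library at 0.15 µM, 3 without the second there or without the first or second at 1 µM, and 9 without the third at 0.5 µM. There were 10 without the third library at 0.25 µM and the third at 0.5 µM together. COX6B2 and NDUFB3 were called higher in every alternative run.

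The single steps were smaller. From 0.15 to 0.25 µM, NDUFA10, NDUFS3, NDUFS6, UQCR10 and UQCRFS1 were called lower and none higher, against 7.32% and 4.96% of all tested genes, and NDUFA10 and NDUFS3 are named to complete the count. This count rested on single libraries: it was 0 without the third library at 0.25 µM and 13 without the third at 0.5 µM. From 0.25 to 0.5 µM, 8 genes were lower and 5 higher, against 16% and 14.4% of all tested genes. Same-numbered libraries of these 2 groups varied together, most of all the third ones, and with the replicate number as a block the step gave 15 calls in place of 13. Without the first library at 0.25 µM it gave 7 calls, and without the second 8. From 0.5 to 1 µM edgeR called 0 of the 83, and 0 of all tested genes. None of the 83 had an unadjusted p under 0.05 in that step (372 of all tested genes had), and DESeq2 also called 0.

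The other genes of the pathway were described from lists of proteins that build, feed or regulate the complexes. Their counts are given with TMM scaling only, where 27.5% of all tested genes were lower and 38.8% higher at 1 µM. Among genes that averaged 10 CPM or more, 48.4% were lower, close to the assembly lists of complexes II and V, at 50%. Assembly factors, which put the complexes together and are not part of them, were mostly lower at 1 µM: 14 of 17 for complex I, 2 of 4 for complex II, 4 of 6 for complex III, 17 of 25 for complex IV and 2 of 4 for complex V, with 1 gene, SURF1, higher. The median log2 fold changes of these lists were -0.79, -0.46, -0.76, -0.86 and -0.58, beside 0.32 for all tested genes. NDUFAF5, which modifies a core subunit of complex I, fell from 23.2, 25.3 and 25.1 CPM to 4.22, 3.87 and 4.08 CPM at 1 µM, with a log2 fold change of -2.59 ± 0.21 (SE, adjusted p = 2.55e-09). COA7, an assembly factor of complex IV, and BCS1L, which inserts the Rieske protein into complex III, had log2 fold changes of -2.06 and -1.91. TMEM70 of complex V was at -1.40 and ATPAF1, a chaperone of the F1 part, at -0.99. SDHAF3 of complex II was at -0.95, SDHAF2 at -0.75 and FOXRED1 of complex I at -0.42. The call of SDHAF2 was lost in 3 of 26 alternatives and that of FOXRED1 in 7.

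SURF1, which acts early in building complex IV, stood at 27.1, 30.2 and 31.5 CPM untreated and 57.0, 57.4 and 54.4 CPM at 1 µM. All libraries at 1 µM were above the untreated ones (log2 fold change 0.93 ± 0.19, SE, adjusted p = 0.000236). LYRM7, which handles the Rieske protein before its insertion, was at 123, 113 and 119 CPM untreated, 61.2, 58.1 and 69.3 CPM at 0.15 µM and 91.1, 97.7 and 98.9 CPM at 1 µM. It was called lower at 0.15 µM (-0.91, adjusted p = 1.21e-05) and was higher at 1 than at 0.15 µM (0.61, adjusted p = 0.000856). The call at 1 µM (-0.30, adjusted p = 0.0478) was lost in 22 of 26 alternatives and the sign turned in 4.

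Of 7 carriers and subunits that the symbol rule leaves out, 4 were lower and 1 higher at 1 µM (median -0.51). The shares of all tested genes were 27.5% and 38.8%. Cytochrome c1 of complex III (CYC1) fell from 536, 426 and 436 CPM to 112, 202 and 108 CPM (log2 fold change -1.73 ± 0.39, SE, adjusted p = 0.00134), and cytochrome c itself (CYCS) from 636, 780 and 698 CPM to 232, 228 and 219 CPM (-1.64 ± 0.14, SE). NDUFAB1, the acyl carrier protein bound in complex I, was at -1.45. SLC25A4, the muscle and heart form of the ADP/ATP carrier, rose from 69.7, 71.2 and 63.2 CPM to 144, 187 and 133 CPM (1.18 ± 0.15, SE, adjusted p = 1.53e-06), while at 0.15 µM its libraries overlapped the untreated ones (-0.15, adjusted p = 0.416).

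Of 19 genes of the citric acid cycle and pyruvate entry, 16 were lower and 2 higher at 1 µM (median -0.85). Of all tested genes, 27.5% were lower and 38.8% higher at that dose. SUCLG2, a subunit of the GTP-forming succinyl-CoA synthetase, fell the most (-2.73 ± 0.18, SE, adjusted p = 1.93e-10), and PC, pyruvate carboxylase, was the highest (1.13 ± 0.21, SE, adjusted p = 0.000111). Of 13 genes of coenzyme Q synthesis, 7 were lower and 1 higher (median -0.41). This lower share, 53.8%, was near the 48.4% of all genes that averaged 10 CPM or more. PDSS1, which makes the tail of coenzyme Q, was at -2.65 and COQ8B, a kinase-like member, at 1.56. Of 16 genes that copy and transcribe the mitochondrial genome, 10 were lower and none higher (median -1.22). TFB2M, the transcription factor that opens mitochondrial promoters, fell from 113, 126 and 119 CPM to 9.40, 9.53 and 7.60 CPM (-3.75 ± 0.18, SE, adjusted p = 3.44e-12). TFAM, which packs mitochondrial DNA, was at -1.76 and MGME1, a nuclease of it, at -1.08, which was called lower at 0.5 and 1 µM only.

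Among 11 tested regulators of respiratory genes, 9 were lower and 1 higher at 1 µM (median -1.29). The shares of all tested genes were 27.5% and 38.8%. NRF1 stood at 41.1, 44.6 and 43.6 CPM untreated and 19.8, 15.9 and 19.98 CPM at 1 µM (-1.21 ± 0.16, SE, adjusted p = 1.96e-06). GABPA, the DNA-binding subunit of GABP, was at -1.10, the nuclear receptor ESRRA at -1.03 and the coactivator PPARGC1B at -1.31. ESRRA and PPARGC1B were not called at 0.15 µM (-0.21 and -0.06). PPARGC1A, the coactivator PGC-1alpha, was scarce, with 2 counts in the untreated group and 36 at 1 µM, a ratio of 15.9 (95% exact interval 4.1 to 136), and it was called higher (adjusted p = 0.00568).

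**Figure D5:**
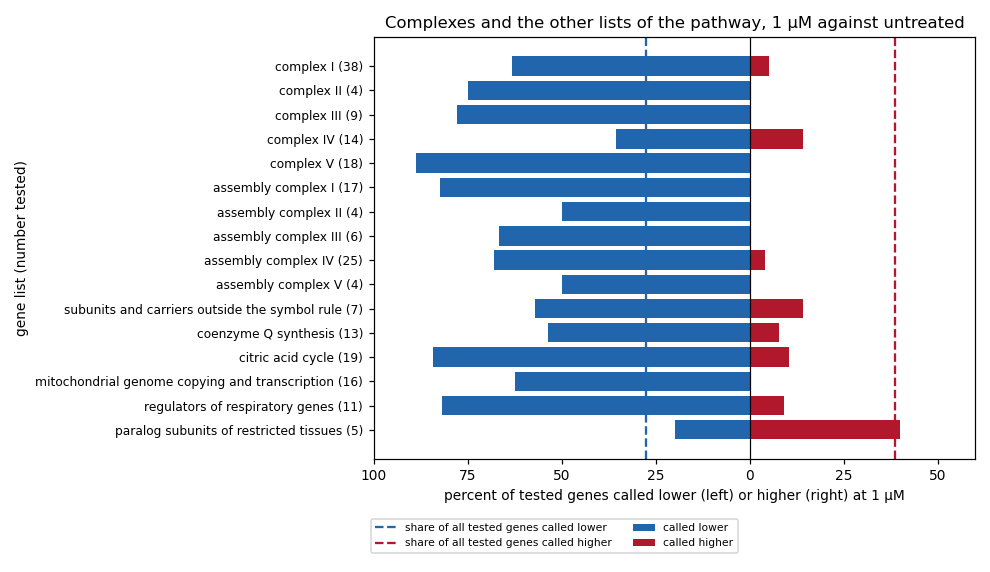
Percent of the tested genes of each complex and of each list of the pathway called lower (blue, left) or higher (red, right) at 1 µM against untreated cells, with the number tested in brackets. Dashed lines mark the shares of all tested genes called lower (27.5%) and higher (38.8%). The lower share exceeds the dashed line in every complex and list except the paralog subunits of restricted tissues (1 lower and 2 higher of 5). Among all genes that averaged 10 CPM or more, not drawn, 48.4% were lower. Complex IV (35.7%) is below that share, and assembly II and V (50% each) and coenzyme Q synthesis (53.8%) are near it.

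Several of the 89 genes are limited by how reads were counted. Another gene covers at least 20% of the exon bases of 20 genes, and 40 share no exon base with any gene. Pseudogenes named after them exist for 49 genes, 188 in all, and reads may have been lost to these copies. NDUFA7, NDUFA13 and NDUFV2, known as common subunits, were measured at only 1.12, 2.63 and 2.83 CPM in untreated cells, with 32.5%, 21% and 28.4% of their exon bases shared on the same strand.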

How the data were processed

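RNA was selected by poly(A), made into directional paired-end libraries and sequenced in 15 K562 samples. Per the labels and methods, the authors trimmed reads with Trim Galore 0.6.10, aligned them to hg38 with HISAT2 2.2.1, handled alignments with SAMtools 1.21 and counted reads per gene with featureCounts 1.5.3 on GENCODE 38; the strand setting is not given in the sources used here. The deposited table holds raw counts, and 0 of its columns belong to other samples. Deposited FPKM files were not used here. The doses were grouped from the labels.

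All 15 libraries entered 1 edgeR 4.0.16 quasi-likelihood fit (R 4.3.3; filterByExpr, TMM, group only, Benjamini-Hochberg over 23711 genes). SE was the absolute log2 fold change divided by the root of F. CPM used TMM-scaled totals, and levels per kilobase used the union of exons in GENCODE 44. DESeq2 1.42.0 was an alternative, and 26 alternatives were run per comparison. The steps were tested on simulated data. P-values measure the spread between libraries labelled as biological replicates, which the labels do not tie to separate cultures. Intervals and floors cover counting error only. Between 0.25 and 0.5 µM, deviations of same-numbered libraries correlated at 0.266 to 0.579, the highest between the third libraries. Differently numbered ones correlated at -0.414 to 0.236, the highest between the second at 0.25 µM and the first at 0.5 µM. The values and labels thus do not settle whether equal numbers belong together, and the block is an alternative only. In other pairs of groups the correlation of same-numbered libraries was at most 0.0918.

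Named genes were the SDH genes; in each other complex the 2 lowest and 2 highest log2 fold changes at 1 µM; the gene with the highest untreated level per exon length in each complex; any gene called in opposite directions at 0.15 and 1 µM; ATP5IF1 and paralogs of restricted tissues; CYC1, NDUFAB1, CYCS and the main regulators; and the lowest and highest called gene of each list at 1 µM. Other genes were named after their values were seen. The values of 2 genes are left out. The members and lists were chosen with earlier results of these data known. Symbols were found for 99.7% of identifiers. Figures used Python 3.11.15, pandas 2.3.3, numpy 2.4.6 and matplotlib 3.10.9.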

Additional observations from a re-analysis of the deposited data

How the results depend on the processing

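Of 363 counts under alternatives, 317 stayed within 1.5 times the reported count and 46 did not. With library totals, 25 genes were lower and 5 higher at 0.15 µM, 35 and 7 at 0.25 µM, 10 higher at 0.5 µM and 7 higher at 1 µM, with 3 calls from 0.15 to 0.25 µM and 26 from 0.25 to 0.5 µM. When TMM used genes of 10 CPM or more, 7, 10 and 7 genes were higher at 0.25, 0.5 and 1 µM, 9 were higher at 1 than at 0.15 µM, and 2 were called from 0.15 to 0.25 µM. With at least 10 counts in every library, 1 gene was higher at 0.15 µM and 1 was called from 0.15 to 0.25 µM. With only the 2 groups compared, 7 were higher at 1 µM, 9 were higher at 1 than at 0.15 µM, and the steps to 0.25 and 0.5 µM gave 1 and 6 calls. Without the third libraries at 0.25 and 0.5 µM, 7 were higher at 0.5 µM and 10 were higher at 1 than at 0.15 µM. The genes higher at 1 than at 0.15 µM numbered 9 with DESeq2 and 8 with the GC and length correction and replicate block together. The step from 0.15 to 0.25 µM gave 11 calls with that last setting, 2 with RLE scaling and 12 with no filter. The cause was not tested.

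With 1 library left out, 36 to 50, 47 to 63, 54 to 61 and 54 to 61 genes were lower at the 4 doses and 2 to 3, 2 to 3, 3 to 6 and 2 to 5 higher. From 0.15 to 1 µM, 21 to 38 were lower and 2 to 9 higher, and the 3 single steps gave 0 to 13, 7 to 17 and 0 to 0 calls. The test over all groups gave 58 to 71. The higher genes at 1 µM numbered 2 without replicate 2 at 1 µM. Those higher at 1 than at 0.15 µM numbered 2 without replicate 1 at 0.15 µM, 3 without replicate 2 at 0.15 µM or replicate 1 or 2 at 1 µM, and 9 without replicate 3 at 0.5 µM. The step from 0.15 to 0.25 µM gave 0 calls without replicate 3 at 0.25 µM, 1 without replicate 3 at 0.15 µM, 13 without replicate 3 at 0.5 µM, and 2 to 3 without any 1 of the untreated or 1 µM libraries, replicate 1 at 0.15 µM or replicate 1 or 2 at 0.25 µM.

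With the replicate block, 45, 63, 59 and 59 genes were lower and 3, 2, 4 and 4 higher at the 4 doses, 30 were lower and 6 higher at 1 than at 0.15 µM, and the steps gave 7, 15 and 0 calls, with 65 over all groups. Among named genes, the block added COX7B2 from 0.15 to 1 µM (0.97, adjusted p = 0.0438) and UQCRQ at 0.5 and 1 µM, removed LYRM7 at 1 µM (-0.30, adjusted p = 0.0567) and UQCRH from 0.15 to 1 µM (-0.43, adjusted p = 0.0552), and changed no other call.

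Among named genes, the sign changed under library totals for ATP5PD at 0.25 µM (0.0562) and 0.5 µM (0.30), SDHC at 0.25 µM (0.0585), UQCRB at 0.25 µM (0.0598) and LYRM7 at 1 µM (0.05). It changed when TMM used genes of 10 CPM or more for ATP5PD at 0.5 µM (0.35) and LYRM7 at 0.5 and 1 µM (0.0164 and 0.0777). LYRM7 also changed sign with the GC and length correction, at 0.5 and 1 µM (0.0075 and 0.15), and with that correction and the block (0.0125 and 0.15). Of all 61 genes called lower at 0.25 µM, 5 changed sign in an alternative, NDUFB5 and NDUFV3 among them. Depth limits the paralogs with under 20 counts a group.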
